A study of Mus musculus with 20 samples.

Results

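The genes examined here encode the main carriers that move bile acids into liver cells and out of them again: Slc10a1, Slco1a1, Slco1a4, Slco1b2, Abcb11, Abcc2, Abcc3, Abcc4, Slc51a and Slc51b. They were chosen by name, as every probe whose gene name in the array files was 1 of these 10 symbols, with Slc51a and Slc51b written there under their older names Osta and Ostb. This gave 10 of 27573 gene names and 14 of 41174 probes, and 9 of the 10 genes passed the filter on dim probes that 17526 genes passed. Each of the 20 livers was hybridised to its own single-colour (Cy3) whole-mouse array, which reads the amount of each transcript as the brightness of a spot. The mice were male, 28 weeks old and on a mixed Sv129/C57Bl6J background, and the design text counts 5 mice in each of 4 groups, so that replicates were different animals. Wild-type mice and mice with an LXR alpha/beta double knockout, which lack the nuclear receptors Nr1h3 and Nr1h2 that sense oxidised cholesterol, ate a normal chow or a Western diet (a cocoa butter diet with mouse chow) for 7 weeks. The labels restrict the deletion to no tissue or cell type. They name both diets by product and list no ingredients, so that whether the Western diet held added bile acid is not given in the sources used here.

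Bile acids are made from cholesterol in hepatocytes, secreted into bile, taken up again in the intestine and returned to the liver in portal blood. On the blood side of the hepatocyte, the sodium-dependent carrier encoded by Slc10a1 and the organic anion carriers of the Slco family take bile acids up, and the pump encoded by Abcb11 moves them across the canalicular membrane into bile. When bile flow or bile acid load is disturbed, the pumps encoded by Abcc3 and Abcc4 and the 2-subunit carrier encoded by Slc51a and Slc51b can return bile acids to the blood, and the bile acid receptor Nr1h4 (FXR) is known to regulate several of these genes.

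Levels are given on a log2 scale, as the processed signal relative to the 75th percentile of its own array, so that 0 is the brightness of that percentile and a difference of 1 is a doubling. Levels of different probes cannot be set against each other, since probes differ in brightness for reasons other than transcript amount. The 75th percentile itself was 339.7 to 435.1 intensity units on the knockout arrays of Western diet, above the range of 170.3 to 330.8 on the other 15 arrays, and scalings that do not use it are named where they change a result. Between 53.48% and 67.05% of probes were well above background, a flag the extraction software sets per spot. The deleted receptors followed the genotype labels: the mean Nr1h3 level of chow-fed mice was 4.53 ± 0.14 (SD, n = 5) in the wild-type and -4.52 ± 0.54 (SD, n = 5) in the knockout, and with Western diet it was 4.29 ± 0.32 (SD, n = 5) and -4.71 ± 0.73 (SD, n = 5). Nr1h2 was 0.60 or higher in every wild-type mouse and -3.57 or lower in every knockout mouse. Differences were tested with limma and Benjamini-Hochberg adjustment over all genes, an adjusted p under 0.05 is called here, and errors of differences are standard errors. The precision rests on 5 arrays a group, and each group enters more than 1 comparison.

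The knockout mice on Western diet had far lower levels of 3 of the 4 uptake genes than the other groups, while the fourth, Slco1a4, was higher in both knockout groups than in wild-type mice on normal diet. Of the exporters, Abcb11 was lower in knockout mice and Abcc4 was higher, most so on Western diet, and Slc51b was raised by Western diet in both genotypes. In wild-type mice Western diet moved Slc51b by a larger amount than any of the other 8 measured transporters.

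Slc10a1 encodes the sodium-taurocholate cotransporting polypeptide, the principal sodium-dependent uptake carrier for conjugated bile acids. Its probe lies on chromosome 12, 81879331 to 81879390 (mm8, the build of the array annotation). Slc10a1 levels were 4.96, 4.96, 5.06, 5.55 and 5.22 in chow-fed wild-type mice, and 3.79, 4.01, 4.18, 4.28 and 4.51 in those fed Western diet. Among knockout mice, Slc10a1 was at 3.98, 4.88, 4.40, 4.88 and 4.57 with chow, and at 1.39, 0.47, 0.22, 2.41 and 1.35 with Western diet. The wild-type mice on normal diet were highest, the knockout mice on Western diet lay well below every other mouse, and the middle groups overlapped each other. On Western diet the level fell by 2.99 ± 0.31 in knockout against wild-type mice, a 7.92-fold lower level (limma, adjusted p = 1.87e-07). Western diet lowered it by 10.4-fold in knockout mice (difference -3.38 ± 0.31, limma, adjusted p = 7.71e-08). In wild-type mice the diet difference was -1 ± 0.31, with the 2 groups apart, and missed the threshold (limma, adjusted p = 0.0614). It was called when only those 2 groups entered the fit (limma, adjusted p = 0.00802), with trend and robust moderation (limma, adjusted p = 0.0467), and without knockout Western-diet mouse 3 (limma, adjusted p = 0.0377) or mouse 4 (limma, adjusted p = 0.0151). The diet difference in knockout mice exceeded that in wild-type mice by -2.38 ± 0.43 (limma, adjusted p = 0.000536). On normal diet the genotype difference was -0.61, with a 95% interval from -1.25 to 0.04 (limma, adjusted p = 0.179). In whole liver RNA, fewer hepatocytes and less of a transcript in each hepatocyte cannot be told apart, here and for the genes that follow.

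Slco1a1 encodes an organic anion carrier of the basolateral membrane that is known to be higher in male than in female mouse liver. The brighter of its 2 probes lies on chromosome 6, 141871298 to 141871357 (mm8). Slco1a1 levels were 3.46, 3.49, 3.86, 3.29 and 3.98 in chow-fed wild-type mice, and 2.95, 3.31, 3.09, 2.58 and 3.35 in those fed Western diet. Among knockout mice, Slco1a1 was at 1.64, 1.97, 2.81, 3.28 and 2.07 with chow. With Western diet they had -2.31, -5.58, -5.45, -7.12 and -8.00, and only mouse 1 of these 5 was well above background. Every knockout mouse on Western diet lay far below every other mouse, and on normal diet the highest knockout value came just under the lowest wild-type value. The fitted difference between genotypes on Western diet was -8.74 ± 0.69 (limma, adjusted p = 7.88e-09), and -7.84 when spots below background were set to the lowest signal measured above it on their array. The diet difference in knockout mice was -8.04 ± 0.69 (limma, adjusted p = 3.87e-08), or -7.15 with that floor. In wild-type mice it was -0.57, with a 95% interval from -2.01 to 0.88 (limma, adjusted p = 0.687), and the difference between the 2 diet effects was -7.48 ± 0.97 (limma, adjusted p = 2.58e-05), or -6.58 with the floor. With normexp these 3 called differences were -4.57, -3.87 and -3.29, and without knockout Western-diet mouse 1 they were -9.59, -8.89 and -8.32, and they were called under every setting that gave a value. On normal diet the genotype difference of -1.26 ± 0.69 missed the threshold (limma, adjusted p = 0.216). It was called with only the 2 groups in the fit (limma, adjusted p = 0.0183), with normexp background correction (limma, adjusted p = 0.0116), in the series matrix (limma, adjusted p = 0.0159) and without knockout Western-diet mouse 1 (limma, adjusted p = 0.0385). The dimmer probe, at 141870919 to 141870977 on the same chromosome, gave the same calls, with -9.06 for genotype on Western diet and -8.40 for diet in knockout mice.

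Slco1a4 encodes a related organic anion carrier that also takes up bile acids and many drugs, and is known to respond to the xenobiotic receptors. Its probe lies on chromosome 6, 141768560 to 141768619 (mm8). Slco1a4 levels were -0.95, -0.43, -1.10, 0.13 and -0.71 in chow-fed wild-type mice, and 1.12, 2.46, 1.51, -0.02 and 0.93 in those fed Western diet. Among knockout mice, Slco1a4 was at 1.48, 1.74, 1.54, 2.05 and 1.97 with chow, and at 2.43, 2.09, 2.17, 2.29 and 2.21 with Western diet. The wild-type mice on Western diet spread widely, from a value inside the normal-diet range to the highest of all 20 mice, while the knockout mice on Western diet lay close together. On normal diet the level rose by 2.37 ± 0.32 in knockout mice, a 5.16-fold higher level (limma, adjusted p = 4.32e-05), and the groups lay apart. With normexp this difference was 1.72. Western diet raised it in wild-type mice by 1.81 ± 0.32 (limma, adjusted p = 0.0019), with overlapping ranges. On Western diet the genotype difference was 1.04 ± 0.32 (limma, adjusted p = 0.00981), again with overlap, and in knockout mice the diet difference was 0.48, with a 95% interval from -0.19 to 1.16 (limma, adjusted p = 0.224). These 2 groups lay apart, the difference was 0.24 to 0.95 on the 5 slides with both, and it was called with only the 2 groups in the fit (limma, adjusted p = 0.016). Slco1a4 was the only transporter with called differences that did not hold one direction on every slide. Within the 4 slides with both groups the genotype difference on Western diet ran from -0.29 to 2.23. On normal diet the genotype difference held its direction, from 1.84 to 3.16 on 4 slides. The difference between the diet effects of -1.33 ± 0.45 (limma, adjusted p = 0.0354) was lost without any single one of 10 mice (knockout mice 2, 3 and 5 and wild-type mouse 3 on Western diet, knockout mice 2, 4 and 5 and wild-type mice 1, 3 and 5 on chow) and under 6 other settings, with adjusted p up to 0.346 over all settings (limma).

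Slco1b2 encodes the liver carrier whose human counterparts are OATP1B1 and OATP1B3, and it takes up unconjugated bile acids. Its probe lies on chromosome 6, 141648361 to 141648420 (mm8). Slco1b2 levels were 7.69, 7.72, 7.59, 8.15 and 7.76 in chow-fed wild-type mice, and 6.85, 6.69, 7.14, 7.35 and 7.46 in those fed Western diet. Among knockout mice, Slco1b2 was at 7.61, 7.82, 7.68, 7.44 and 7.33 with chow, and at 5.71, 5.53, 5.60, 6.31 and 5.61 with Western diet. The 2 normal-diet groups overlapped, wild-type mice on Western diet came below wild-type mice on normal diet, and knockout mice on Western diet came below all others. On Western diet Slco1b2 fell by 1.34 ± 0.17 in knockout mice, a 2.54-fold lower level (limma, adjusted p = 2.5e-06). Western diet lowered it by 1.82 ± 0.17 on the log2 scale, or 3.54-fold, in knockout mice (limma, adjusted p = 1.13e-07). In wild-type mice the fall was 0.68 ± 0.17 on the log2 scale (difference -0.68, limma, adjusted p = 0.0217). That call was lost with median scaling, quantile normalization, normexp and the series matrix, and without wild-type Western-diet mouse 1 (limma, adjusted p = 0.0654) or mouse 2 (limma, adjusted p = 0.0707) or wild-type normal-diet mouse 4 (limma, adjusted p = 0.0649). The diet effects differed between genotypes by -1.14 ± 0.24 (limma, adjusted p = 0.00184), a call lost with normexp (-0.80, limma, adjusted p = 0.396). On normal diet the genotype difference was -0.20, with a 95% interval from -0.56 to 0.16 (limma, adjusted p = 0.436).

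**Figure D1:**
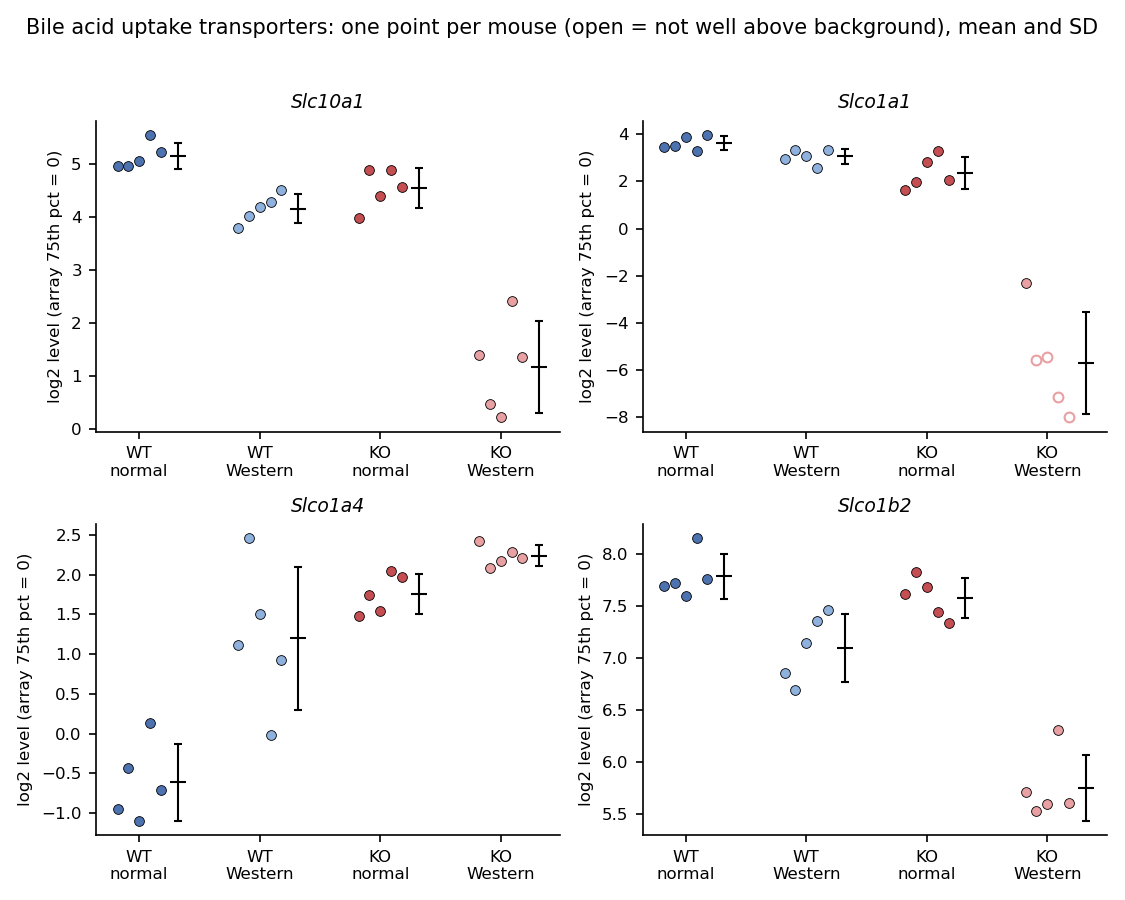
Levels of the 4 uptake genes in each mouse, as log2 signal relative to the 75th percentile of the array (vertical axis), by genotype and diet (horizontal axis), with bars for the mean and SD of 5 mice and open points for spots not well above background. Slc10a1, Slco1a1 and Slco1b2 drop in the knockout mice on Western diet, 4 of which have Slco1a1 spots not well above background, and Slco1a4 runs from -1.10 to 0.13 in wild-type mice on normal diet against 2.09 to 2.43 in the knockout mice with Western diet.

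The promoters of 2 of the transporters are shown because they hold the same inverted hexamer repeat with a spacing of 1 base. FXR is known to bind this arrangement with its partner RXR. The sequences are the 250 bases before a transcript start in RefSeq (GRCm38.p6), 5′ to 3′ on the strand of the gene, with the match to the repeat in capitals. The Abcb11 sequence is chr2:69342617-69342866 on the minus strand and the Slco1b2 sequence is chr6:141629268-141629517 on the plus strand.
Abcb11: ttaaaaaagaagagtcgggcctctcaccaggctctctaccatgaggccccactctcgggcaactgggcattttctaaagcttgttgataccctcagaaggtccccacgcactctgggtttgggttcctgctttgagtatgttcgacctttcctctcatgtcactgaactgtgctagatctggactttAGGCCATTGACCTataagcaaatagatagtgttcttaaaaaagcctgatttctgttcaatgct
Slco1b2: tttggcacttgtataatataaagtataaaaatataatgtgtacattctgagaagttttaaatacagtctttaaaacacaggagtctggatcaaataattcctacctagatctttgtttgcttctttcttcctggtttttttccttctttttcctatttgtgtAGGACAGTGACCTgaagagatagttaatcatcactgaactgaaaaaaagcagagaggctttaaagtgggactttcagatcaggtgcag
The motif AGGNCANTGACCT, with 1 free letter in the first hexamer and 1 in the spacer, was written after the Abcb11 promoter had been read. It starts 63 bases before the Abcb11 start, as AGGCCATTGACCT, and 88 bases before the Slco1b2 start, as AGGACAGTGACCT. Searched on both strands of 300-base windows (250 before to 50 after the start), it was present in 12 of 27025 genes, or 0.0444%. RefSeq windows were matched for 9 of the 10 transporters, all but Abcc3. Of these 9, only the windows of Abcb11 and Slco1b2 held the motif. Those of Slc10a1 and Slco1a1, which also fell in knockout mice on Western diet, and that of Slc51b did not. The strict form AGGTCANTGACCT, which overlaps the first motif, was in 0.0111% of genes, and the repeat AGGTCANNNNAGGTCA, of the kind that LXR binds, was in 0.0148%. Neither string was in a window of a transporter. The hexamer AGGTCA alone, a part of all of these, was in 18.1% of genes and in 7 of the 9 transporters. TGACNNNGC, the core of the antioxidant response element, was in 14% of genes and in the windows of Abcc2 and Abcc4. A match is a description of letters in a window, and binding was not measured.

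Abcb11 encodes the bile salt export pump, the main route of bile salts across the canalicular membrane, and its promoter is shown above. Its probe lies on chromosome 2, 69039172 to 69039231 (mm8). Abcb11 levels were 7.42, 7.35, 7.43, 7.82 and 7.68 in chow-fed wild-type mice, and 7.77, 7.82, 7.84, 8.06 and 7.82 in those fed Western diet. Among knockout mice, Abcb11 was at 6.79, 6.83, 6.89 and 6.47 with chow (mice 1, 3, 4 and 5), and at 6.05, 6.41, 6.19 and 6.42 with Western diet (mice 1, 2, 3 and 5). The spot was marked as an outlier by the extraction software in the remaining knockout mouse of each diet, so that the fit used 4 mice in each knockout group. The wild-type groups overlapped each other, and both lay above the knockout mice on normal diet, which lay above the knockout mice on Western diet. Abcb11 fell in knockout mice by 0.79 ± 0.13 on normal diet (difference -0.79, limma, adjusted p = 0.000309), and with Western diet by 1.59 ± 0.13, or 3.01-fold (difference -1.59, limma, adjusted p = 2.59e-08). The diet effects differed between genotypes by -0.80 ± 0.18 (limma, adjusted p = 0.00335), a call lost with normexp (-0.41, limma, adjusted p = 0.655). The diet difference within each genotype rested on the scaling. In knockout mice it was -0.48 ± 0.13 (limma, adjusted p = 0.00694), but not called at -0.38 with median scaling, -0.11 with normexp, -0.10 in the series matrix and 0.05 with quantile normalization. In wild-type mice it was 0.32 ± 0.12 and not called (limma, adjusted p = 0.132), but it was called with quantile normalization at 0.59 (limma, adjusted p = 0.00641) and in the series matrix at 0.60 (limma, adjusted p = 0.00927).

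Abcc2 encodes the canalicular pump for bilirubin conjugates, glutathione and divalent bile salts. Its probe lies on chromosome 19, 43890900 to 43890959 (mm8). Abcc2 levels were 3.19, 3.19, 3.41, 3.26 and 3.38 in chow-fed wild-type mice, and 2.92, 3.69, 2.78, 2.61 and 3.35 in those fed Western diet. Among knockout mice, Abcc2 was at 4.11, 4.03, 3.90, 3.72 and 3.69 with chow, and at 3.23, 3.45, 3.71, 3.71 and 3.51 with Western diet. On normal diet all knockout mice were above all wild-type mice, and on Western diet the genotypes overlapped. Abcc2 rose in knockout mice by 0.60 ± 0.17 on normal diet, a 1.52-fold higher level (limma, adjusted p = 0.0164), and, with Western diet, by 0.45 ± 0.17 (limma, adjusted p = 0.0275). Both calls were lost with median scaling (0.57 and 0.37; limma, adjusted p = 0.0549 and 0.112) and with normexp. The second was also lost with only the 2 groups in the fit (limma, adjusted p = 0.0888) and without knockout Western-diet mouse 3 or 4 or wild-type Western-diet mouse 1, 3 or 4, with adjusted p from 0.0603 to 0.0869 (limma). The diet differences were -0.22 in wild-type mice, with a 95% interval from -0.57 to 0.13, and -0.37 in knockout mice, with a 95% interval from -0.72 to -0.01 (limma, adjusted p = 0.509 and 0.0768). The latter was called with only the 2 groups in the fit and without wild-type Western-diet mouse 2 (limma, adjusted p = 0.0329).

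Abcc3 encodes a basolateral pump that returns conjugated bile acids and glucuronides to the blood. The brighter of its 2 probes lies on chromosome 11, 94159447 to 94159506 (mm8). Abcc3 levels were 3.93, 4.12, 3.98, 4.14 and 3.86 in chow-fed wild-type mice, and 3.98, 4.70, 3.96, 3.66 and 3.53 in those fed Western diet. Among knockout mice, Abcc3 was at 4.69, 4.74, 4.63, 4.99 and 4.53 with chow, and at 4.61, 4.62, 4.83, 4.67 and 4.74 with Western diet. All knockout mice lay above all wild-type mice but wild-type mouse 2 on Western diet, and the diets overlapped within each genotype. Abcc3 rose in knockout mice by 0.71 ± 0.16 on normal diet (limma, adjusted p = 0.00457) and by 0.73 ± 0.16 on Western diet (limma, adjusted p = 0.000884), 1.63-fold and 1.65-fold. The diet difference was -0.04 in wild-type mice, with a 95% interval from -0.38 to 0.30, and -0.02 in knockout mice, with a 95% interval from -0.36 to 0.32. The dimmer probe, at 94180461 to 94180520, did not give these calls: its genotype differences were 0.48 ± 0.23 on normal diet and 0.08 ± 0.23 on Western diet (limma, adjusted p = 0.167 and 0.79), and its diet difference in knockout mice was -0.61 ± 0.23 (limma, adjusted p = 0.0372). The genotype call on normal diet was also lost with normexp (0.59).

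Abcc4 encodes a second basolateral pump, which exports bile acids together with glutathione and is known to be raised in cholestasis. The brighter of its 2 probes lies on chromosome 14, 117366592 to 117366651 (mm8). Abcc4 levels were -3.23, -3.02, -3.09, -3.13 and -3.01 in chow-fed wild-type mice, and -2.73, -2.70, -3.36, -2.81 and -3.13 in those fed Western diet. Among knockout mice, Abcc4 was at -0.99, -1.08, -1.49, -2.00 and -1.33 with chow, and at 0.30, 0.64, 0.26, 0.37 and 0.05 with Western diet. The wild-type groups overlapped at the bottom, the knockout mice on normal diet lay above them without overlap, and the knockout mice on Western diet lay above all others. Abcc4 rose in knockout mice by 1.72 ± 0.17 on normal diet, a 3.29-fold higher level (limma, adjusted p = 1.79e-06), and by 3.27 ± 0.17 on Western diet, a 9.65-fold higher level (limma, adjusted p = 5.82e-11). Western diet raised it 3.25-fold in knockout mice (1.70 ± 0.17, limma, adjusted p = 2.52e-07). With normexp the last 2 differences were 1.72 and 0.99, still called. In wild-type mice the diet difference was 0.15, with a 95% interval from -0.21 to 0.51 (limma, adjusted p = 0.668), and the diet effects differed by 1.55 ± 0.24 (limma, adjusted p = 0.000144). Within slides, the genotype difference on Western diet ran from 2.86 to 3.73 on the 4 slides with both groups. The dimmer probe, at 117368003 to 117368062, was well above background on none of the 10 wild-type arrays, on 2 of 5 knockout arrays of normal diet and on all 5 of Western diet. It gave the same genotype calls (1.16 ± 0.35 and 2.47 ± 0.35) and diet call in knockout mice (1.29 ± 0.35), but its difference of the diet effects, 1.31 ± 0.50, was not called (limma, adjusted p = 0.0587). With normexp the genotype difference on normal diet, 0.78, and the difference of the diet effects, 0.94, were not called.

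Slc51b encodes the beta subunit of the organic solute transporter, a carrier that exports bile acids across the basolateral membrane only as a pair with the alpha subunit. Its probe lies on chromosome 9, 65210904 to 65210963 (mm8). Slc51b levels were -4.12, -2.23, -3.96, -3.04 and -3.66 in chow-fed wild-type mice, and 0.73, 1.38, 1.31, 0.68 and 0.43 in those fed Western diet. Among knockout mice, Slc51b was at -2.49, -3.64, -4.15, -3.00 and -2.80 with chow, and at 1.39, 2.45, 2.48, 1.75 and 2.37 with Western diet. Every mouse on Western diet lay above every mouse on normal diet, the genotypes overlapped on normal diet, and on Western diet the knockout mice began just above the highest wild-type mouse. Western diet raised Slc51b 19.8-fold in wild-type mice (4.31 ± 0.36, limma, adjusted p = 2.15e-06) and 39.5-fold in knockout mice (5.31 ± 0.36, limma, adjusted p = 3.1e-09). With normexp these 2 differences were smaller, 2.07 and 3.08, and still called. On Western diet the level was 2.27-fold higher in knockout mice (1.18 ± 0.36, limma, adjusted p = 0.0094). The difference between the diet effects was 1.00, with a 95% interval from -0.08 to 2.08, and was not called (limma, adjusted p = 0.164), although it was in the series matrix at 1.15 (limma, adjusted p = 0.0132). Within slides, the diet difference ran from 3.61 to 5.26 on 4 slides in wild-type mice and from 3.87 to 6.63 on 5 slides in knockout mice. On normal diet the genotype difference was 0.18, with a 95% interval from -0.58 to 0.95 (limma, adjusted p = 0.76).

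Slc51a, the gene of the alpha subunit, was not well above background with its brighter probe (chromosome 16, 32395297 to 32395356, mm8) on any of the 20 arrays. Its other probe (32395532 to 32395591) was well above background only on the array of wild-type mouse 1 on normal diet, at -3.29. The gene did not pass the filter and was not tested, and no change of the alpha subunit beside that of Slc51b could be measured at this signal.

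**Figure D2:**
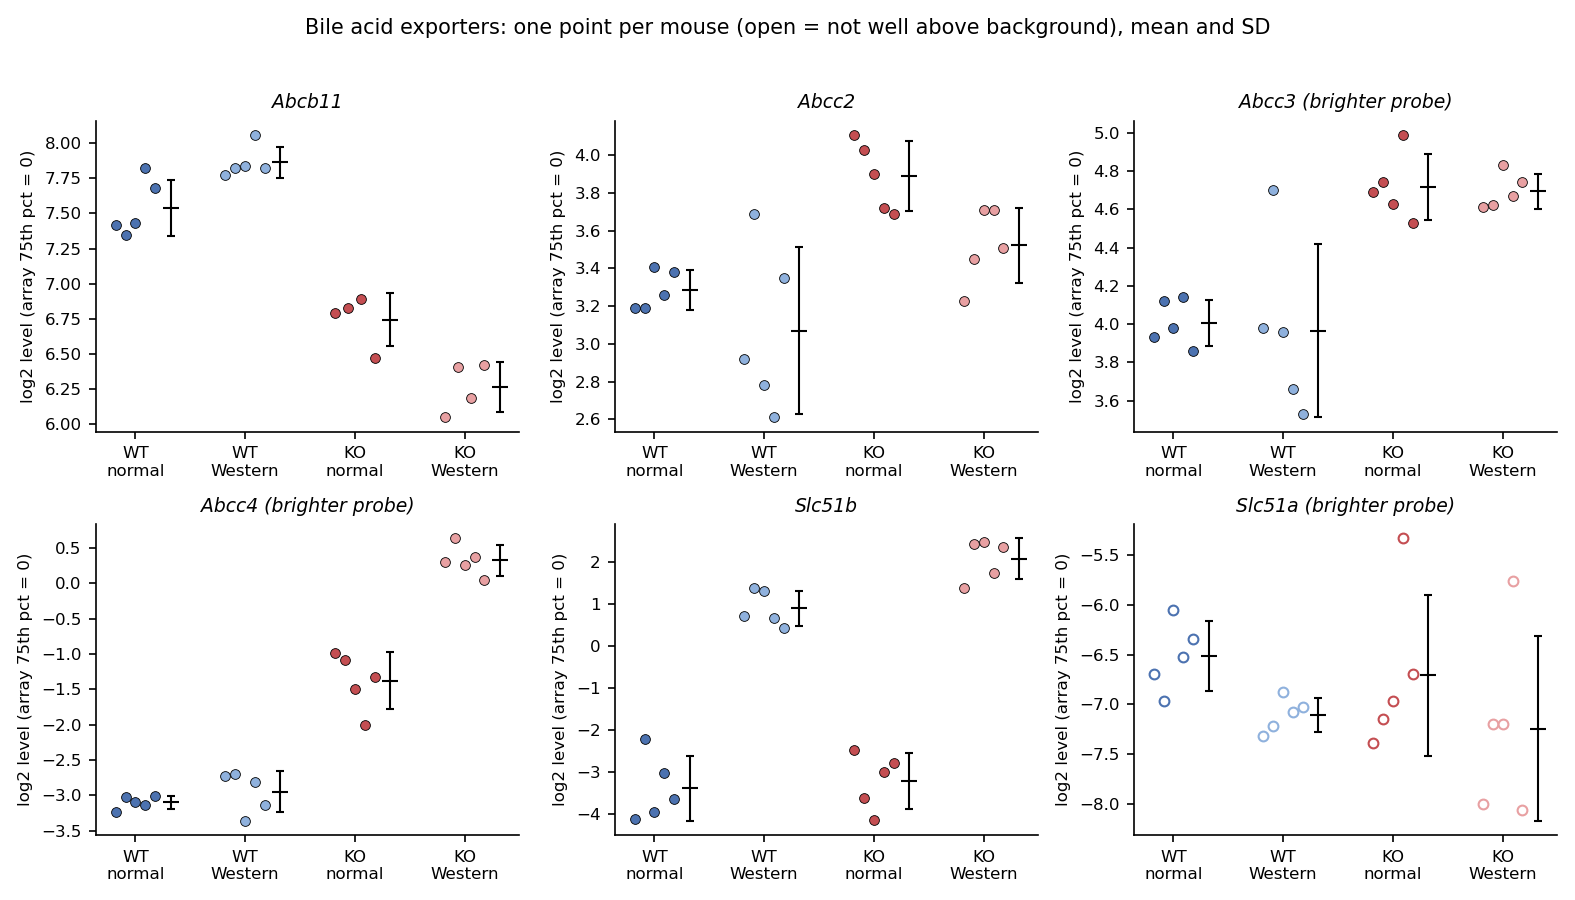
Levels of the 6 exporter genes in each mouse, as log2 signal relative to the 75th percentile of the array (vertical axis), by genotype and diet (horizontal axis), with bars for the mean and SD and open points for spots not well above background. Abcc4 climbs in the knockout groups, Slc51b separates the diets, Abcb11 is lower in both knockout groups (4 mice in each), and every Slc51a spot of the brighter probe is open.

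Counted over the measured transporters, 5 of 9 were called for genotype on normal diet (Slco1a4, Abcc2, Abcc3 and Abcc4 higher, Abcb11 lower), where 19.8% of the 17522 tested genes were called, 11.4% higher and 8.42% lower. For genotype on Western diet all 9 were called, where most genes of the array were called too, 57.7% of those tested: Slco1a4, Abcc2, Abcc3, Abcc4 and Slc51b were higher (25% of all genes) and Slc10a1, Slco1a1, Slco1b2 and Abcb11 lower (32.7%). For diet in wild-type mice 3 of 9 were called (Slco1a4 and Slc51b higher, Slco1b2 lower), against 5.98% of tested genes, 3.26% higher and 2.72% lower. For diet in knockout mice 6 of 9 were called (Abcc4 and Slc51b higher, Slc10a1, Slco1a1, Slco1b2 and Abcb11 lower), against 50.4% of tested genes (22.7% higher and 27.8% lower), which is not far below the share among the transporters. The difference of the diet effects was called for 6 of 9, against 27.6% of tested genes (12.9% higher and 14.7% lower), with Abcc4 higher and the other 5 lower. The median difference of the 9 transporters was 0.18, 0.45, -0.04, -0.37 and -0.80 in the 5 comparisons, beside -0.06, -0.16, -0.03, -0.12 and -0.08 over all tested genes. The transporters did not move as a block: on Western diet the genotype difference ran from -8.74 for Slco1a1 (-7.84 with the floor, since 4 of 5 knockout spots were not above background) to 3.27 for Abcc4. Of the 29 called differences, 26 had the same direction on every slide that held the groups compared. The other 3 were all of Slco1a4, whose genotype difference on normal diet was among the 26. With normexp 3 of 9 were called for genotype on normal diet and 2 of 9 for the difference of the diet effects. Calls over all 17522 genes also dropped with normexp. They were 307 higher and 203 lower for genotype on normal diet, and 634 higher and 377 lower for the difference of the diet effects.

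**Figure D3:**
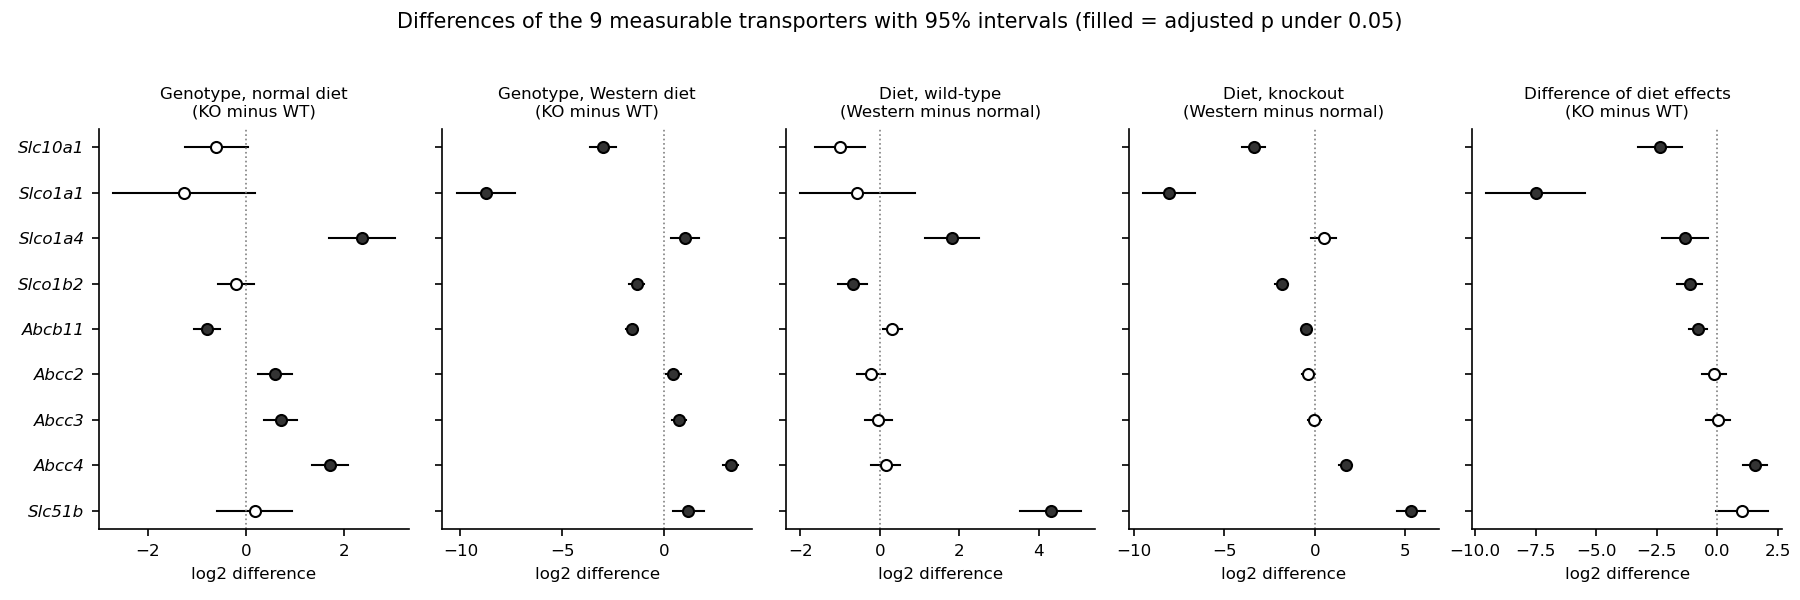
Differences of the 9 measured transporters on the log2 scale (horizontal axis, its range set per panel) in the 5 comparisons, with 95% intervals from limma and filled points for an adjusted p under 0.05. The uptake genes Slc10a1, Slco1a1 and Slco1b2 lie left of 0 and Slco1a4, Abcc2, Abcc3, Abcc4 and Slc51b right of 0 in both genotype panels, where on normal diet the intervals of Slc10a1, Slco1a1, Slco1b2 and Slc51b include 0.

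The counts of the gene lists that follow stand beside the shares of all tested genes given above, which were 25% higher and 32.7% lower for genotype on Western diet and 22.7% and 27.8% for diet in knockout mice. Genes that make bile acids were mostly lower in both of these comparisons. Of 15 synthesis genes, 11 fell and 1 rose for genotype on Western diet, with a median of -1.54, and 13 fell and 1 rose for diet in knockout mice, with a median of -1.34. Cyp7b1, the oxysterol 7-alpha-hydroxylase of the alternative pathway, fell by 4.59 ± 0.23 in knockout mice on Western diet (limma, adjusted p = 3.22e-11), and Slc27a5, which activates bile acids for conjugation, fell by 1.76 ± 0.15 (limma, adjusted p = 1.55e-08). Western diet lowered Cyp8b1, the sterol 12-alpha-hydroxylase, in both genotypes, with fitted differences of -8.93 ± 0.76 in wild-type and -8.86 ± 0.76 in knockout mice (limma, adjusted p = 2.15e-06 and 3.9e-08), but the gene was well above background on only 1 of 5 arrays of each Western-diet group. With the floor described for Slco1a1 these differences were -7.52 and -7.29. Cyp7a1, the rate-limiting enzyme of the classical pathway, had diet differences of -4.18 ± 1.13 and -8.32 ± 1.13 (limma, adjusted p = 0.0337 and 7.25e-06). With that diet it was above background on 4 of 5 wild-type and 2 of 5 knockout arrays, and the floor gave -3.8 and -7.55. For diet in wild-type mice 6 of the 15 fell and none rose (2.72% and 3.26% of all genes). For genotype on normal diet 2 rose and 4 fell (11.4% and 8.42% of all genes). In both comparisons the count that rose is near the share of all genes.

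Among 15 tested bile acid sensors and regulators, 5 rose and 8 fell for genotype on Western diet and 2 rose and none fell on normal diet (11.4% and 8.42% of all genes), and the counts of genes that rose are near the shares of all genes. Nr1i3, the constitutive androstane receptor, was higher in knockout mice on both diets (1.15 ± 0.22 and 1.10 ± 0.22, limma, adjusted p = 0.00108 and 0.000309). Nr0b2, the repressor that FXR induces, rose by 1.12 ± 0.32 on Western diet in wild-type mice (limma, adjusted p = 0.0452). Vdr, the vitamin D receptor, which also binds the bile acid lithocholate, was well above background in knockout mice on Western diet alone. It passed the filter through that group only. There it was at least 4.71-fold higher than in wild-type mice on that diet by the floor described for Slco1a1, a bound that was not tested. The fitted difference without the floor was 4.11 ± 0.38 (limma, adjusted p = 4.73e-08). Nr1h4 and Hnf4a, chosen after their values had been seen, fell by 0.74 ± 0.18 and 0.95 ± 0.17 in knockout mice on Western diet (limma, adjusted p = 0.00177 and 0.000102).

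Of 25 other hepatic transporters and canalicular partners, 6 rose and 15 fell for genotype on Western diet. On normal diet 4 rose and 3 fell (11.4% and 8.42% of all genes). The count that rose on Western diet and both counts on normal diet are near the shares of all genes. Slc22a7, a basolateral organic anion carrier, fell by 3.73 ± 0.50 in knockout mice on Western diet (limma, adjusted p = 4.72e-06), and Abcg8, a subunit of the canalicular sterol exporter and a known LXR target, fell by 3.62 ± 0.29 (limma, adjusted p = 1.15e-08). Abcb1a, a multidrug exporter, was not well above background in chow-fed wild-type mice. By the floor described for Slco1a1 it was at least 3.75-fold higher in wild-type mice on Western diet. The fitted difference without the floor was 3.74 ± 0.35 (limma, adjusted p = 4.01e-06). Of 7 tested detoxification genes, 3 rose for genotype on normal diet, the same comparison in which Slco1a4, Abcc2, Abcc3 and Abcc4 rose, with Cyp3a11 up by 1.61 ± 0.23 (limma, adjusted p = 6.38e-05) with the spot saturated on up to 2 arrays of a group. On Western diet 1 of the 7, Sult2a2, a bile acid sulfotransferase, was higher in knockout mice and 4 were lower. Of 10 NRF2 targets, 3 rose for genotype on normal diet and 4 rose and 3 fell on Western diet, where the count that fell is near the share of all genes, with Nqo1, a quinone reductase, up by 1.64 ± 0.27 and 1.74 ± 0.27 (limma, adjusted p = 0.000279 and 2.35e-05).

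**Figure D4:**
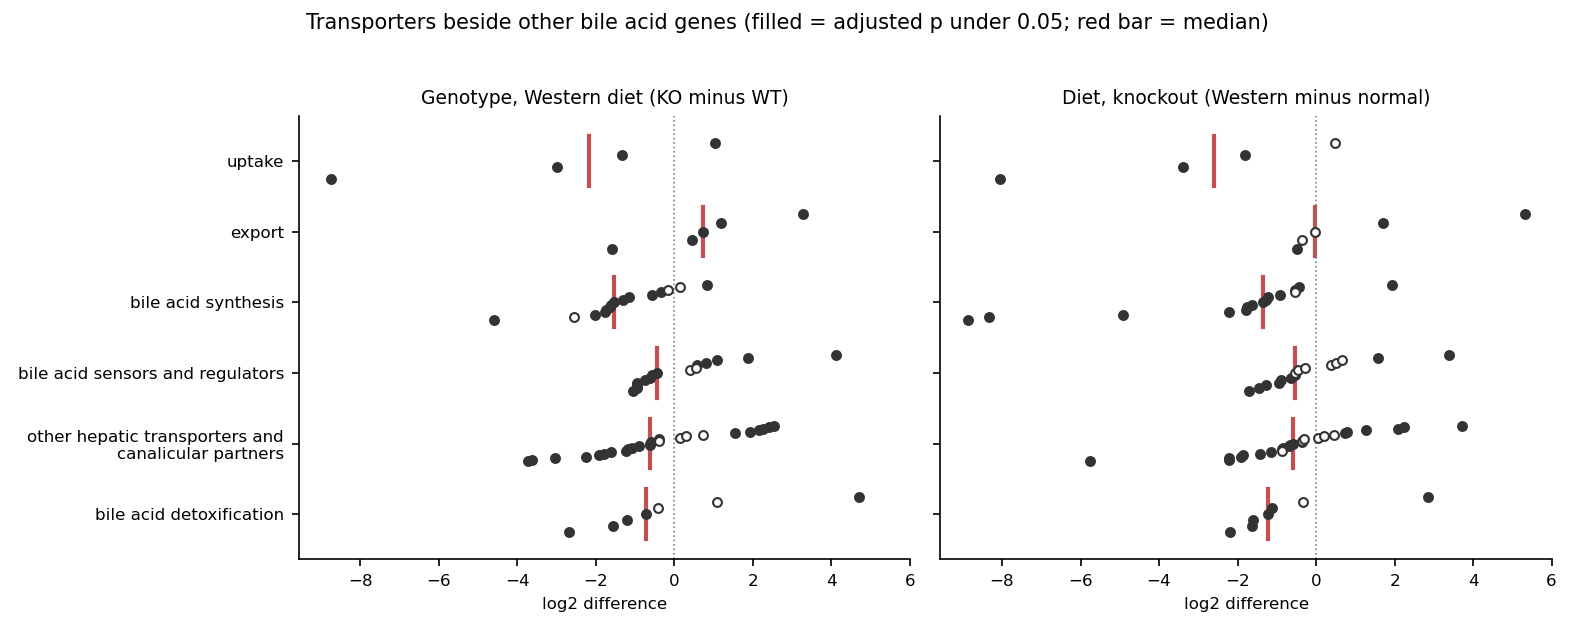
Log2 differences (horizontal axis) of single genes in the transporters and in 4 other bile acid lists, for genotype on Western diet and for diet in knockout mice, with filled points for an adjusted p under 0.05 and a red bar at the median of each list. The uptake genes and the synthesis genes lie mainly left of 0, the synthesis list with medians of -1.54 and -1.34, while the exporters lie on both sides.

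Lists of genes that differ between male and female mouse liver were counted because Slco1a1 is itself known as male-biased. All 9 genes of a male-biased list fell for genotype on Western diet, with a median of -4.53, and all 9 for diet in knockout mice, with a median of -3.19. Cyp7b1 is in this list as well as in the synthesis list, so the lists are not separate for that gene. Elovl3, a fatty acid elongase, had a genotype difference of -10.33 ± 1.20 on Western diet (limma, adjusted p = 8.36e-07), or -9.21 with the floor, with 1 of 5 knockout arrays above background. For genotype on normal diet 2 of the 9 fell, where 8.42% of all genes fell. Of 9 female-biased genes, 6 rose and 1 fell for genotype on each diet, and 3 rose and 3 fell for diet in knockout mice, with a median of -0.33, and Cyp2b9 was up by 4.28 ± 0.53 on normal diet (limma, adjusted p = 1.73e-05). The part of these genes in the transporter differences was not tested.

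Markers of several liver cell types also moved with the knockout on Western diet. Summed levels add the signals of different probes, so that the brightest probes weigh most. A spot marked as an outlier adds nothing to the sum of its array, so the ranges of the sums can also reflect such spots. Each of the 10 measured hepatocyte markers was above background on at least 1 array of every group, and their summed level, as multiples of the 75th percentile, was 891 to 1004 in knockout mice on Western diet, below 1167 to 1524 in wild-type mice on that diet, and 1399 to 1804 (knockout) and 1487 to 2272 (wild-type) with chow. Of these 10, 9 fell for genotype on Western diet with a median of -0.62, and single markers ranged as far as -2.03 for Ttr and -1.50 for Hpd. The transporters that fell there had -1.34 (Slco1b2), -1.59 (Abcb11), -2.99 (Slc10a1) and -8.74 (Slco1a1, or -7.84 with the floor). The summed level of 13 cholangiocyte markers was 162 to 224 in knockout mice on Western diet, 45.5 to 158 in wild-type mice on that diet, and, with chow, 33 to 66.3 in knockout mice and 25.2 to 36.8 in wild-type mice. Of 11 tested, 8 rose and 1 fell for genotype on Western diet, among them Krt7 (2.83) and Krt19 (2.79), and Sctr was below background in all groups. In wild-type mice, where Slc51b rose with Western diet, 2 of the 11 rose and none fell (3.26% and 2.72% of all genes). These were Spp1, by 1.69 ± 0.38 (limma, adjusted p = 0.0119), and Prom1, which had no array above background on normal diet. Prom1 was at least 1.39-fold higher by the same floor, and its fitted difference without the floor was 2.33 ± 0.58 (limma, adjusted p = 0.0205). For diet in wild-type mice Krt7 had 0.13 and Krt19 had 0.22, not called (limma, adjusted p = 0.857 and 0.757). Summed macrophage markers were 248 to 266 in knockout mice on Western diet against 14.8 to 146 in the other groups, and summed stellate cell and fibroblast markers 89.9 to 203 against 11.1 to 81. The macrophage markers did not go one way: of 14, 8 rose and 5 fell for genotype on Western diet, with Gpnmb, a marker of lipid-laden macrophages, at 11.46 ± 0.87, or 10.36 with the floor (above background on 1 of 5 wild-type arrays), and Cd5l and Clec4f, which mark resident Kupffer cells, at -8.56 ± 0.38 and -8.10 ± 0.84 (limma, adjusted p = 4.86e-09, 7.83e-12 and 2.05e-07). Of the 10 stellate cell markers 7 rose and none fell. Each marker of the 2 lists was above background on at least 1 array of every group, except Itgam in wild-type mice on Western diet and Gpnmb in chow-fed wild-type mice. Their part in the transporter differences was not tested.

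For the 3 transporters with the widest range of group means, the genes most like them were taken as those with the smallest root mean square difference over the 4 group means, each gene centred on its own mean. For Slco1a1, whose lowest group mean comes from 4 of 5 spots not well above background and so has no exact value, these were the transcripts named TC1755975 (0.23), NAP112201-1 (0.35) and BC093515 (0.35) in the array annotation. For Slc51b, with a span of 5.49, they were 1700016C15Rik (0.55), Lpl (0.58), which encodes lipoprotein lipase, and Myo15b (0.73). For Slc10a1, with a span of 3.98, they were Elovl6 (0.03), a fatty acid elongase, Hnf4aos (0.09) and Glul (0.17), which encodes glutamine synthetase. With only 4 points a gene, a small value describes these group means and no more.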

How the data were processed

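Liver RNA of 20 mice was read on 20 single-colour arrays on 6 slides. Per the file headers, the authors used Feature Extraction 9.5.3.1 from Agilent under protocol GE1-v5_95_Feb07, and deposited for each spot a processed signal, an intensity with the background subtracted and trends over the slide removed. The deposited series matrix holds log2 values of 24493 probes, and the submitters' processing notes name Feature Extraction 9.5 and limma. Its column medians ran from 7.734 to 7.783, so close that the authors' normalization appears to set arrays to a common distribution, whose method is not given in the sources used here; the arrays have 1 colour, so no ratio direction applies. It holds 12 of the 14 transporter probes, all but those of Slc51a.

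Here 43379 non-control spots per array were averaged per probe, leaving out 105 to 270 spots per array marked as outliers. Log2 values had the 75th percentile of all these spots of the array subtracted. Probes were named through accession or symbol with the RefSeq tables, and the probe with the highest mean stood for a gene. A gene was kept if, in some group, 4 or more of the 5 arrays had it well above background. Group means of all 20 arrays were fitted in 1 model with limma 3.58.1 (two-sided tests from lmFit and eBayes in R 4.3.3, with the data.table package, version 1.17.8; 16 residual and 2.23 prior degrees of freedom), with Benjamini-Hochberg adjustment within each of 5 comparisons and a threshold of 0.05. The script was tested on simulated data. Figures were drawn with Python 3.11.15 and matplotlib 3.10.9.

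The transporters and the 13 gene lists were chosen with earlier results of these data known. Named genes were the transporters, the deleted receptors, up to 3 members of each list and comparison with the largest called differences, marker genes, and the 3 genes nearest in pattern to each of 3 transporters; exceptions are stated. Alternatives were median and quantile scaling, normexp (offset 50), the series matrix, filters, other probes, slide and replicate-number blocks, moderation, a fit of only the groups compared, and leaving out arrays in turn. Correlations of the deviations of same-numbered mice ran from -0.38 to 0.49, and not every pair was over 0.1 in any comparison, so the numbers were not taken to pair the mice. Probe sequences were not used here, so a shared signal between the similar Slco1a genes was not tested.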

Additional observations from a re-analysis of the deposited data

Results flagged for a closer look

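The effect of Western diet differed between knockout and wild-type mice, by the limma test of the difference itself, for 6 of 9 transporters. The same test called 27.6% of all tested genes, 12.9% higher and 14.7% lower. The diet effect was lower in knockout mice for Slc10a1 (-2.38 ± 0.43, adjusted p = 0.000536), Slco1a1 (-7.48 ± 0.97, adjusted p = 2.58e-05), Slco1a4 (-1.33 ± 0.45, adjusted p = 0.0354), Slco1b2 (-1.14 ± 0.24, adjusted p = 0.00184) and Abcb11 (-0.80 ± 0.18, adjusted p = 0.00335). It was higher for Abcc4 (1.55 ± 0.24, adjusted p = 0.000144). With normexp the calls of Slco1a4 (-0.67), Slco1b2 (-0.80), Abcb11 (-0.41) and Abcc4 (0.94) were lost, and that of Slco1a4 was lost under 16 of 29 settings. Slco1a4 was the only one of these called higher with the diet in wild-type mice in the main fit, and its knockout levels were high on both diets. Abcb11 had a diet difference of 0.32 in wild-type mice, not called in the main fit but called with quantile normalization and in the series matrix.

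In 4 of 56 groups of a probe, 1 mouse stood apart from the others of its group, where chance marks about 5% of groups. The dimmer Slco1a1 probe was at -3.13 in knockout Western-diet mouse 1, against -7.81 to -7.12 in the other 4, and the brighter probe was above background in the same mouse alone. Slco1b2 was at 6.31 in knockout Western-diet mouse 4, against 5.53 to 5.71, and that mouse also had the highest Slc10a1 level of its group. Abcb11 was at 8.06 in wild-type Western-diet mouse 4, against 7.77 to 7.84. The dimmer Slc51a probe was at -3.29 in wild-type normal-diet mouse 1, against -6.83 to -6.46, while the brighter Slc51a probe of that array was not above background.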

How the results depend on the processing

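Of 45 transporter differences, 29 were called, and 19 of these were called under every one of the 30 settings that gave them a value, the choice of probe aside. Of 16 not called, 10 were called under none of these. Normexp lowered the number of called transporters most, from 5 to 3 for genotype on normal diet and from 6 to 2 for the difference of the diet effects, and over all genes it called 307 higher and 203 lower for genotype on normal diet, against 1989 and 1475. Leaving out 1 mouse gave 5 to 6, 8 to 9, 2 to 4, 6 to 7 and 5 to 6 called transporters in the 5 comparisons, in the order of the report. In the main fit 19.8%, 57.7%, 5.98%, 50.4% and 27.6% of all tested genes were called in these comparisons. Median scaling changed the split over all genes for diet in wild-type mice to 349 higher and 175 lower, from 571 and 476, and normexp changed that for the difference of the diet effects to 634 and 377, from 2259 and 2578.

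Scaling and background correction shifted the median of all genes by over 0.1 in 4 cases: median scaling moved it from -0.03 to 0.08 for diet in wild-type mice, quantile normalization from -0.12 to -0.01 for diet in knockout mice, and normexp from -0.12 to -0.23 for the latter and from -0.08 to -0.20 for the difference of the diet effects.

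Direction turned only for small differences that were not called, and for Abcb11. The diet difference of Abcb11 in knockout mice was 0.05 with quantile normalization. For Abcc3 the diet difference in wild-type mice was 0.07 with median scaling, 0.04 with quantile normalization and 0.01 in the series matrix. In knockout mice it was 0.04, 0.33 and 0.33 under these settings and 0.22 with normexp. The difference of its diet effects was -0.03 with median scaling and -0.40 with the dimmer probe. For Abcc2 that difference was 0.02 with quantile normalization and 0.17 with normexp. The dimmer Abcc4 probe gave -0.02 for diet in wild-type mice. Without single mice, Abcc3 ran from -0.22 to 0.07 for diet in wild-type mice, from -0.07 to 0.05 for diet in knockout mice and from -0.09 to 0.20 for the difference of the diet effects, and Abcc2 from -0.27 to 0.01 for the latter. The cause was not tested.

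With the replicate number as a block, 5, 9, 4, 6 and 5 transporters were called in the 5 comparisons. Over all 17522 genes this setting called 1956 higher and 1478 lower, 4357 and 5686, 490 and 471, 3937 and 4844, and 2195 and 2560. Slc10a1 was gained for diet in wild-type mice (limma, adjusted p = 0.0387) and Slco1a4 lost for the difference of the diet effects (limma, adjusted p = 0.0546). With slide as a block the latter was also lost (adjusted p = 0.063).

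Signal over background limits Slc51a, which could not be tested, Slco1a1 in knockout mice on Western diet, and the dimmer Abcc4 probe in wild-type mice.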
